A study of Homo sapiens with 5 samples.

Results

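Small nucleolar RNA host genes (SNHGs) are long noncoding RNA (lncRNA) genes whose introns carry small nucleolar RNAs (snoRNAs). The 32 host genes described here were the autosomal lncRNA genes of GENCODE release 44, lifted to GRCh37, with a symbol made of SNHG and a number (28 genes), plus growth arrest specific 5 (GAS5), DANCR, ZFAS1 and EPB41L4A-AS1. They were drawn from 61221 autosomal genes by name and class, without use of any measured value. Binding of PHF8, a histone demethylase of the plant homeodomain finger family, was measured by chromatin immunoprecipitation sequencing (ChIP-seq) in SKMEL-147, a human melanoma cell line. Chromatin was precipitated with an anti-PHF8 antibody in 3 replicates named A, B1 and B2. Libraries of input chromatin, named A and B, served the authors as the reference for peak calling and are not analysed here on their own. The labels give no genotype or treatment for the precipitated cells, and the series is described as including a PHF8 loss-of-function model of this line by single guide RNA. No source used here says whether the 3 replicates came from separate cultures, so the spread given below may be technical. The names point to a single input for B1 and B2, and every SD over 3 replicates treats both as separate samples. Peak lists hold no expression values, so the identity of the cells and the activity of any host gene were not checked.

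SnoRNAs are short RNAs that guide chemical modification of other RNAs. Box C/D snoRNAs (SNORD) guide ribose methylation, box H/ACA snoRNAs (SNORA) guide pseudouridylation, and small Cajal body RNAs (SCARNA) do the same for spliceosomal RNAs. Most human snoRNAs are cut out of the introns of a host transcript made by RNA polymerase II. Many host transcripts start with a C followed by a run of pyrimidines, the 5′ terminal oligopyrimidine (TOP) start that ribosomal protein transcripts also have, and many spliced host transcripts are degraded by nonsense-mediated decay. PHF8 is known to bind trimethylated lysine 4 of histone H3, a mark of active promoters, and to remove repressive methyl marks nearby.

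The lists held 21506 peaks in A, 20882 in B1 and 20120 in B2. The fold enrichment of a peak, the linear ratio of ChIP fragments plus 1 to local background plus 1 at the summit, had a median of 18.9 in A and of 11.8 in both B1 and B2. The median summit held 54, 39 and 40 fragments, and the weakest listed summits held 8, 8 and 10. Read totals are not given in the sources used here. Because the scale of fold enrichment was higher in A, genes were compared across replicates by percentile, the rank of a gene's strongest promoter peak among all bound autosomal genes of that replicate. A gene was called bound when each of the 3 lists held a peak reaching to within 1 kb of any of its annotated transcription start sites (TSSs). Series of 3 values are given in the order A, B1, B2.

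PHF8 occupied nearly all of these host genes. Of the 32, 28 (87.5%) were bound, and the same 28 had a peak in each replicate. By the same rule 19.8% of all 18229 autosomal lncRNA genes and 61% of all 19229 autosomal protein-coding genes were bound. The bound hosts were GAS5, DANCR, ZFAS1, EPB41L4A-AS1, SNHG1, SNHG3 to SNHG12, SNHG15, SNHG16, SNHG17, SNHG19 to SNHG22, SNHG25 and SNHG28 to SNHG32. SNHG14, SNHG18, SNHG26 and SNHG27 had no promoter peak in any replicate. The bound hosts lie on many autosomes, with 4 of the 32 genes on chromosome 1, 5 on chromosome 17 and 3 on chromosome 20.

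The count held under stricter rules up to a fold enrichment above 10, which all 28 bound hosts passed and 14.7% of lncRNA genes did. At a fold enrichment above 20, a cutoff chosen after the data were seen, 14 hosts and 6.48% of lncRNA genes were left. With 1 TSS per gene, the 5′ end of the gene record, 27 hosts were bound, against 19% of lncRNA genes and 54.8% of protein-coding genes. SNHG20 was the host lost there, because its summits lay 2174 to 2208 bp downstream of that end.

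The host genes are annotated more densely than other lncRNA genes, with a median of 9.5 TSSs against 1, and a gene with more TSSs has more windows in which a peak can fall. Among hosts with 2 to 5 TSSs 10 of 11 were bound, against 23.3% of other lncRNA genes with as many. All 6 hosts with 6 to 10 TSSs were bound, against 35.8%, and 12 of the 15 hosts with 11 or more, against 45.3%. The share of bound hosts was thus above that of other lncRNA genes in each range of TSS number. The part of annotation depth in the difference was not tested.

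Base composition also differed between the groups. A TSS was called CpG-island-like when the 250 bases on either side of the canonical TSS had a GC share from 0.5 upward and a CpG count of 0.6 or more times that predicted from C and G content. Of the 32 hosts 26 met this, and 23 of those (88.5%) were bound, against 67.7% of CpG-island-like lncRNA genes and 81.5% of CpG-island-like protein-coding genes. Of the 6 hosts that did not meet it, SNHG3, SNHG4, SNHG11, SNHG14, SNHG20 and EPB41L4A-AS1, 5 were bound, against 6.79% of other lncRNA genes outside the definition. At the strongest summit itself the sequence met the definition in 26 of 28 bound hosts in A and in all 28 in B1 and B2. Most other bound genes met it there too. The share was 89.5%, 89.9% and 89.9% at other bound lncRNA genes and 93.1%, 93.4% and 93.1% at bound protein-coding genes. It was 96.2%, 100% and 98.7% at bound ribosomal protein genes. Among the hosts, the canonical TSS of SNHG11 (GC 45.7%, CpG ratio 0.232) lay outside CpG-rich sequence while its PHF8 summit lay within it. The median GC share at the summit was 62.2%, 61.2% and 61.0% in A, B1 and B2 at the hosts, and between 67.9% and 68.1% at other bound lncRNA genes. At bound ribosomal protein genes it was 61.8%, 61.9% and 62.1%, close to the hosts.

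**Figure D1:**
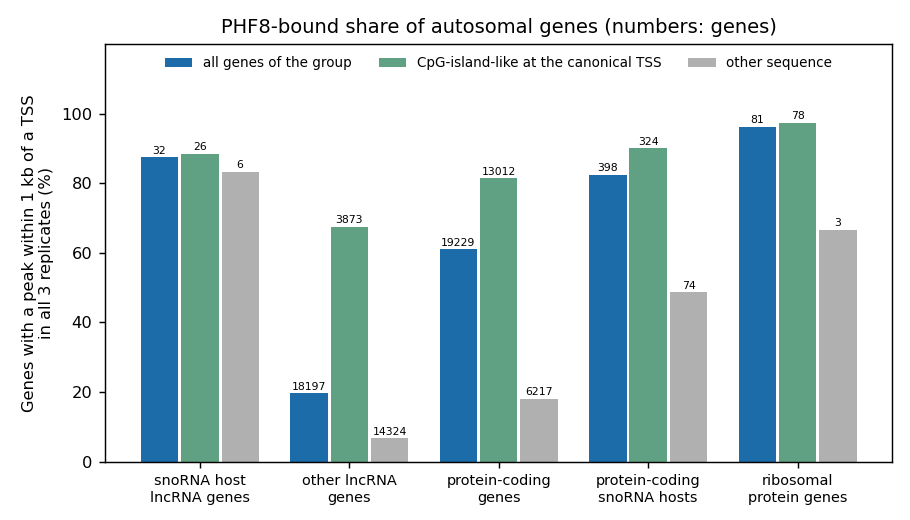
Percent of genes called bound by PHF8 (vertical axis) for 5 groups of autosomal genes; blue bars are all genes of a group, green bars those that are CpG-island-like at the canonical TSS and grey bars the rest, with the number of genes above each bar. The 32 host genes stand at 87.5%, other lncRNA genes at 19.7% and protein-coding genes at 61.0%.

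Start sequences are shown here because the TOP start is the feature by which the transcripts of this class are best known, and because the PHF8 summits were measured against it. A pyrimidine start was scored where an annotated TSS began with C and at least 4 further pyrimidines. Each window runs from 20 bases before such a TSS to 30 bases from it onward, 5′ to 3′ on the strand of the gene, from GRCh37. The capitals mark the C at the TSS and the uninterrupted pyrimidines after it. For bound genes with several pyrimidine starts the one nearest the PHF8 summit is shown, and for SNHG26, which has no summit, the most upstream.

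GAS5, chr1:173837098-173837147 (-): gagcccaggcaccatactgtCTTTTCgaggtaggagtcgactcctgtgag
SNHG16, chr17:74553831-74553880 (+): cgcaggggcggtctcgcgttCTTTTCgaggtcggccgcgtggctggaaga
DANCR, chr4:53578651-53578700 (+): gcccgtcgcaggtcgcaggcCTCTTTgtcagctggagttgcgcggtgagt
ZFAS1, chr20:47895159-47895208 (+): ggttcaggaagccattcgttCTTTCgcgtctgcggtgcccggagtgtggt
EPB41L4A-AS1, chr5:111496549-111496598 (+): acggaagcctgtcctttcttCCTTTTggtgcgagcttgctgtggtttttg
SNHG5, chr6:86388422-86388471 (-): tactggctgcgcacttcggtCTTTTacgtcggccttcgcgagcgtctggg
SNHG8, chr4:119199893-119199942 (+): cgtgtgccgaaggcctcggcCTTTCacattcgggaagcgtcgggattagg
SNHG12, chr1:28908301-28908350 (-): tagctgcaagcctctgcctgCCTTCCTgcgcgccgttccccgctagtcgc
SNHG17, chr20:37063939-37063988 (-): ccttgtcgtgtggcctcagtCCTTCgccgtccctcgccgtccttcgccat
SNHG25, chr17:62223310-62223359 (+): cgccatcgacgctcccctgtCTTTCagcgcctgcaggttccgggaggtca
SNHG29, chr17:16342331-16342380 (+): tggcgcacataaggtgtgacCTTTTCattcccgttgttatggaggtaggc
SNHG26, chr7:22893853-22893902 (+): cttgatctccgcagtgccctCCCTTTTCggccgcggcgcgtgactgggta

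The windows are a selection from the 19 hosts with a pyrimidine start. SNHG1, SNHG3 and SNHG11, each with its strongest summit upstream of that start in every replicate, are not shown. Also left out are SNHG4, SNHG6, SNHG28 and the unbound SNHG18. The first 11 genes shown were bound and SNHG26 was not. GAS5 and SNHG16 share the first 11 bases from the TSS. At the canonical TSS alone 4 of the 32 hosts (12.5%) had a pyrimidine start, namely GAS5, ZFAS1, SNHG12 and SNHG29, against 2.74% of other lncRNA genes, 4.53% of protein-coding genes and 69.1% of the 81 ribosomal protein genes. Over all annotated TSSs 19 hosts (59.4%) had one, against 5.73%, 16.3% and 85.2%. A gene with more TSSs has more chances here too. Counted per TSS, 34 of the 488 TSSs of the hosts (6.97%) began this way, against 2.68% in other lncRNA genes, 2.67% in protein-coding genes and 15.7% in ribosomal protein genes.

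Of the 19 hosts with a pyrimidine start 17 were bound, and SNHG18 and SNHG26 were not. Of the 13 without one, 11 were bound. The PHF8 summit lay within 200 bp downstream of the nearest pyrimidine start in 13 of the 17 in each replicate, and in 12 of them in all 3. This share of 76.5% was below that of bound ribosomal protein genes with such a start, at 83.8%, 86.8% and 82.4%. Taking the nearest of several pyrimidine starts favours a short distance. The share is not given for other bound lncRNA or protein-coding genes with such a start. A link between PHF8 summits and pyrimidine starts was not tested. The median distance at the hosts was 118 bp downstream in A, 99 bp in B1 and 122 bp in B2. At the ribosomal protein genes the medians were 119, 120.5 and 122 bp. The summit of EPB41L4A-AS1 was 130, 127 and 127 bp downstream of its pyrimidine start, that of SNHG29 was 132, 99 and 122 bp downstream, and that of DANCR was 118, 114 and 145 bp downstream. SNHG12 is a case where the choice of TSS matters, since its canonical TSS lies 1168 bp upstream of the start shown above while the summits fell 99, 62 and 60 bp downstream of that start. At SNHG1 the strongest summit was upstream of the pyrimidine start, at -266, -258 and -264 bp, and at SNHG3 it was at -344, -319 and -288 bp. At SNHG11 it was at -1761, -1775 and -1770 bp, near other annotated TSSs of that gene.

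**Figure D2:**
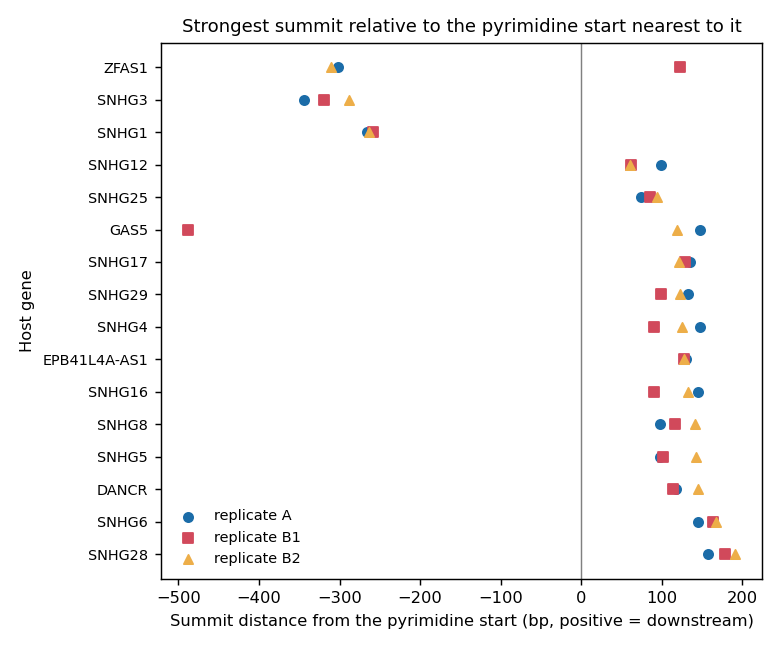
Distance in bp from the pyrimidine start nearest to the summit to the strongest PHF8 summit (horizontal axis, positive values downstream) for the 16 bound host genes with that start within 1 kb of the summit; each symbol is 1 replicate. Symbols of 12 genes lie 60 to 191 bp downstream in all 3 replicates, whereas SNHG1 and SNHG3 lie upstream and GAS5 and ZFAS1 have symbols on both sides.

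The strength of binding at the host genes was described next. Over the 28 bound hosts fold enrichment ranged from 16.6 (SNHG20) to 59.1 (SNHG7) in A, with a median of 38.0. It ranged from 11.8 (SNHG4) to 33.4 (SNHG7) in B1, with a median of 21.9, and from 10.5 (SNHG20) to 35.0 (ZFAS1) in B2, with a median of 20.9. Summits held 60 to 185 fragments in A, 44 to 146 in B1 and 46 to 151 in B2. The median percentile of the bound hosts was 62.8, 61.2 and 62.2, or 62.0 ± 0.781 (SD, n = 3). It was 42.9 ± 0.334 for other bound lncRNA genes, 52.4 ± 0.107 for bound protein-coding genes and 68.1 ± 5.12 for bound ribosomal protein genes. The median of the hosts stood above those of other lncRNA and protein-coding genes in each replicate. The SDs describe replicates of the same genes, not the spread between genes, which was wide. In A the quartiles were 39.7 and 75.4 at the hosts and 27.7 and 76.3 at protein-coding genes. A rank takes the strongest peak over all TSSs, with a median of 9.5 at hosts, 1 at other lncRNA and 5 at protein-coding genes. The part of TSS number in the rank was not tested. Beside the ribosomal protein genes, at 62.3, 72.1 and 69.8, the hosts were level in A and lower in B1 and B2. Between 19 and 20 of the 28 hosts were above the 50th percentile in a replicate, 7 or 8 above the 75th and 1 to 3 above the 90th.

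**Figure D3:**
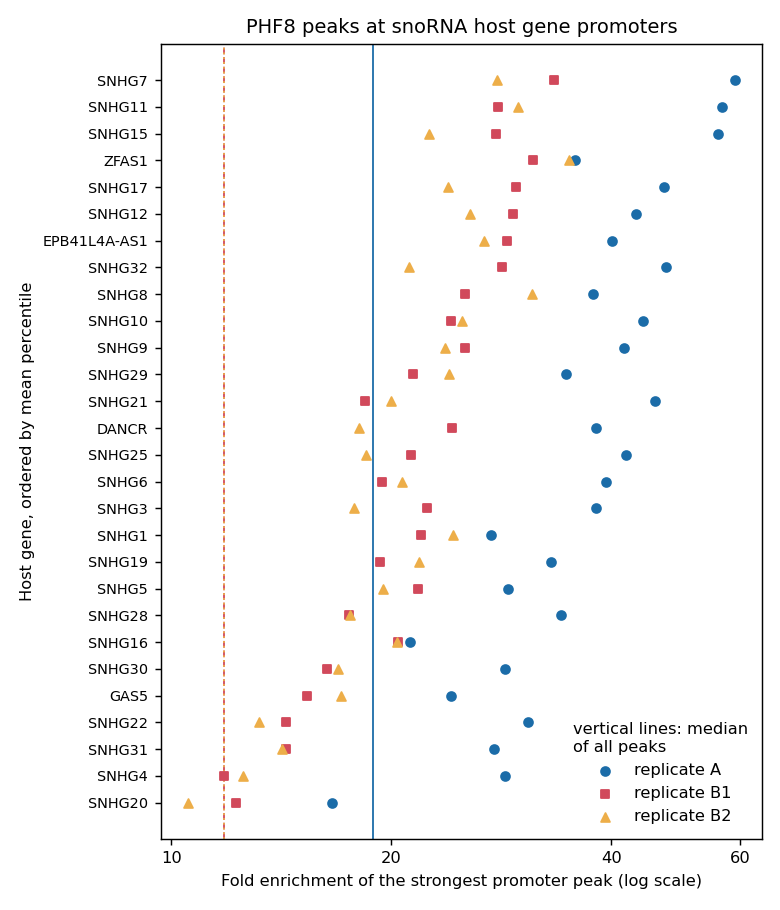
Fold enrichment of the strongest promoter peak (horizontal axis, log scale) of each bound host gene in replicates A, B1 and B2, with genes ordered by mean percentile; vertical lines give the median of all peaks of each replicate (18.9 in A, 11.8 in B1 and in B2, whose lines overlap). SNHG7 is at the top, SNHG20 is at the bottom, and replicate A is shifted to higher values.

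The highest mean percentile belonged to SNHG7, host of SNORA17A and SNORA17B, on chromosome 9. Its peak had fold enrichments of 59.1, 33.4 and 27.9, from 185, 146 and 151 fragments at the summit, and its mean percentile was 91.5 ± 5.28 (SD, n = 3). SNHG11, host of SNORA60 and SNORA71E, had 56.7, 28.0 and 29.8 and a mean percentile of 88.8 ± 6.06. SNHG15, host of SNORA9, had 56.1, 27.8 and 22.6 and a mean percentile of 81.4 ± 12.7. These 3 box H/ACA hosts held the 3 highest values of A.

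The promoter of SNHG7 is printed as that with the highest mean percentile, although in B2 ZFAS1, SNHG8 and SNHG11 had higher fold enrichments, 150 bases before to 30 after its canonical TSS, with each CG in capitals.

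SNHG7, chr9:139622607-139622786 (-): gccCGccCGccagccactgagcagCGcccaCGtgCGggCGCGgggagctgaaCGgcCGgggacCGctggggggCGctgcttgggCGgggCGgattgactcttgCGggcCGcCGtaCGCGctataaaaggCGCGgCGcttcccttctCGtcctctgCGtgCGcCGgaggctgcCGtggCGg

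This window holds 27 CG dinucleotides. The single wide peak over it spanned 1301 bp in A, 1633 bp in B1 and 1378 bp in B2, and its summits fell 105, 99 and 105 bp downstream of the canonical TSS, in an exon of SNHG7.

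ZFAS1, host of SNORD12, SNORD12B and SNORD12C, had fold enrichments of 35.6, 31.3 and 35.0. Its percentiles of 56.9, 89.4 and 96.1 had the widest spread of the 28 (SD 20.9), its fold enrichment being nearly the same in A as in B2 while the median of the hosts was 38.0 in A and 20.9 in B2. In A its summit held 154 fragments over an expected background of 3.35, more fragments than the 143 of SNHG15 over 1.57. The order on fold enrichment thus depended on the local background as well as on the ChIP signal.

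SNHG17, host of SNORA71A to SNORA71D, had values of 47.2, 29.6 and 23.9 (mean percentile 80.6 ± 6.50). SNHG12, which carries SNORA16A, SNORA44, SNORA61 and SNORD99, had values of 43.2, 29.3 and 25.6 (79.9 ± 5.35). EPB41L4A-AS1, host of SNORA13, had values of 40.1, 28.8 and 26.8 (78.2 ± 9.35). SNHG32, host of SNORD48 and SNORD52, had values of 47.6, 28.4 and 21.2 (76.7 ± 11.6).

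GAS5 is the best-known host and its product is a lncRNA linked to growth arrest. It carries 11 snoRNAs in the RefSeq table, 10 of box C/D, and ranked 24th of the 28. Its strongest peak had fold enrichments of 24.2, 15.3 and 17.1, from 61, 44 and 51 fragments, and a mean percentile of 36.5 ± 8.71. DANCR, a lncRNA known for its role against differentiation and host of SNORA26, had 38.2, 24.2 and 18.1 and a mean percentile of 61.2 ± 10.4, so all 3 replicates put it above GAS5.

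The lowest ranks were those of SNHG20, SNHG4, SNHG31 and SNHG22, with GAS5 next. SNHG20, host of SCARNA16, had 16.6, 12.3 and 10.5 (mean percentile 18.6 ± 4.04). SNHG4, host of SNORA74A and SNORA74D, had 28.6, 11.8 and 12.5 (28.8 ± 9.33). SNHG31, host of SNORA70I, had 27.7, 14.4 and 14.2 (33.9 ± 2.66), and SNHG22, host of SCARNA17, had 30.8, 14.4 and 13.2 (35.1 ± 8.32). Each of these 5 hosts was below the 50th percentile in every replicate.

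The remaining hosts lay between. From SNHG8 (75.9 ± 14.8), SNHG10 (74.8 ± 4.17) and SNHG9 (72.5 ± 1.26) the mean percentile went down through SNHG29 (62.5), SNHG21 (61.7), SNHG25 (60.9), SNHG6 (59.6), SNHG3 (58.4), SNHG1 (57.4), SNHG19 (55.8) and SNHG5 (52.3) to SNHG28 (48.3), SNHG16 (45.6) and SNHG30 (41.0). The order is not fine-grained. Of the 27 pairs of neighbours in it, 26 were closer than the larger SD of the pair, and the median SD was 8.85 percentile points. SNHG1 and SNHG16 were spread almost as widely as ZFAS1, from 36.0 to 74.6 and from 22.3 to 59.4, in both cases with A lowest.

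**Figure D4:**
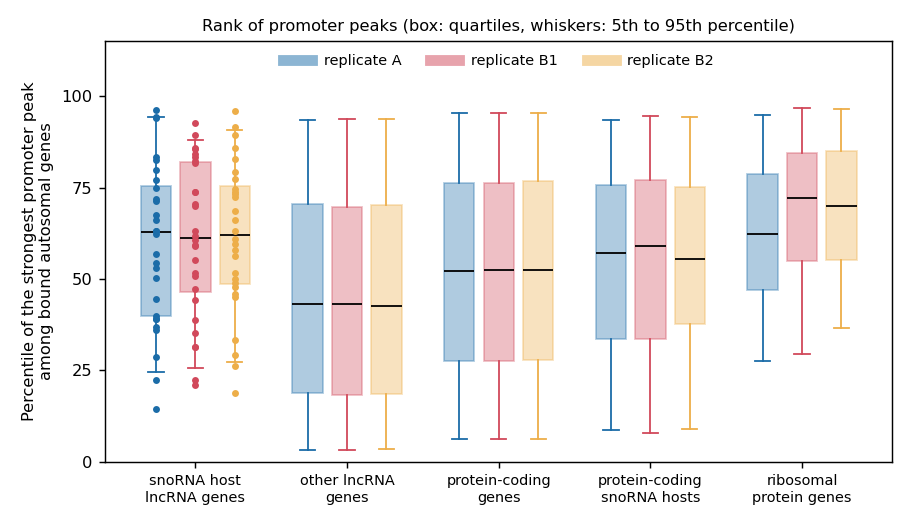
Percentile of the strongest promoter peak among bound autosomal genes (vertical axis) by gene group and replicate; boxes span the quartiles with the median as a line, whiskers the 5th to the 95th percentile of the group, and points are the 28 bound host genes. The medians of the hosts lie at 62.8, 61.2 and 62.2, above those of other lncRNA genes (43.2, 43.0 and 42.5).

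Grouped by cargo, the 11 hosts of box H/ACA snoRNAs alone were all bound, with a median of their mean percentiles of 75.9 and a range of 28.8 (SNHG4) to 91.5 (SNHG7). Of the 13 hosts of box C/D snoRNAs alone 10 were bound, with a median of 58.5 and a range of 41.0 (SNHG30) to 80.8 (ZFAS1). The 4 hosts of SCARNAs, SNHG10, SNHG20, SNHG21 and SNHG22, were all bound, with a median of 48.4. GAS5 and SNHG12 carry both boxes and were bound. The ranges of these classes overlap, and the classes were read from gene names in the RefSeq table. That table named 147 snoRNAs or SCARNAs in the 32 genes, of which 83 are in SNHG14 and 62 in the 28 bound hosts, and it named none in SNHG27 and SNHG28.

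PHF8 summits fell mostly just inside the transcribed side of the TSS. The strongest summit was at or downstream of the nearest annotated TSS of the host in 19 of 28 hosts in A, 23 in B1 and 22 in B2 (76.2% ± 7.43, SD, n = 3). The share was 48.5% ± 0.379 at other bound lncRNA genes, 66.0% ± 0.201 at bound protein-coding genes and 67.9% at bound ribosomal protein genes in each replicate. The median position at the hosts was 79.5 bp downstream in A, 81 bp in B1 and 87.5 bp in B2. Of the 28 summits 17, 19 and 18 fell 50 to 150 bp downstream. Distances were taken to the nearest of a median of 9.5 TSSs per host, which favours short ones. The summit was in an exon of the host itself in 18, 18 and 19 of the 28, in an intron in 5, 6 and 5, and outside the gene in the rest. These positions and counts are given for the hosts alone, so they do not set the hosts apart from other bound genes.

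SNHG3, SNHG9 and SNHG10 had their strongest summit upstream, outside the gene, in every replicate (at -281, -256 and -225 bp at SNHG3). In every replicate that of SNHG9 lay inside the annotated span of RPS2 and that of SNHG10 inside GLRX5. The ranks of SNHG9 and SNHG10 thus come from summits inside a neighbouring gene. The peak of SNHG10 downstream of its own canonical TSS had lower fold enrichments of 32.2, 18.6 and 17.2. SNHG19 and SNHG21 had their strongest summit upstream, outside the gene, in A only and SNHG30 in B1 and B2 only. That of SNHG19 in A lay inside TRAF7. Further hosts had a strongest summit inside both their own span and that of a protein-coding gene. These were SNHG4, SNHG5, SNHG20, SNHG22, SNHG28 and EPB41L4A-AS1 in every replicate, ZFAS1 in A and B2, and GAS5 in B1. At SNHG11, SNHG15, SNHG32 and EPB41L4A-AS1 the summits were 421 to 481 bp downstream of the canonical TSS but within 125 bp of another annotated TSS of the same gene. SNHG20 was the farthest, with summits 2208, 2174 and 2190 bp downstream of its canonical TSS and 146, 112 and 128 bp downstream of the nearest annotated TSS.

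Many of these promoters carried a pair of peaks with the TSS between them. In each replicate 12 of the 28 bound hosts (42.9%) had 1 summit upstream and 1 downstream of the canonical TSS within 1 kb, against 25.2%, 27.5% and 27.2% of other bound lncRNA genes in A, B1 and B2 and 30.5%, 34.6% and 34.6% of bound protein-coding genes. The share was 37.2%, 42.3% and 44.9% at bound ribosomal protein genes, above the hosts in B2, and 30.5%, 38.7% and 40.2% at bound protein-coding snoRNA hosts. GAS5, DANCR, SNHG3, SNHG10, SNHG19, SNHG29, SNHG31 and SNHG32 had such a pair in all 3 replicates, and 15 hosts had one in at least 1. The median distance between both summits of a pair at the hosts was 593.5, 590 and 565.5 bp, with the upstream summit at -426, -436.5 and -386 bp and the downstream summit at 148, 139 and 137.5 bp. The downstream summit of such pairs was at 156, 153 and 154 bp at other bound lncRNA genes. At bound protein-coding genes it was at 139, 139 and 140 bp. At GAS5 the downstream peak had fold enrichments of 24.2, 13.98 and 17.1 and the upstream peak of 16.8, 15.3 and 12.8, so that the stronger summit was 148 and 119 bp downstream in A and B2 and at -488 bp in B1. Its percentile in B1 thus describes the other peak of the pair, with a summit inside the annotated span of ZBTB37. ZFAS1 had 1 wide peak of 1403, 1488 and 1549 bp over the same kind of region, with the summit at -302, 123 and -310 bp from the canonical TSS.

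**Figure D5:**
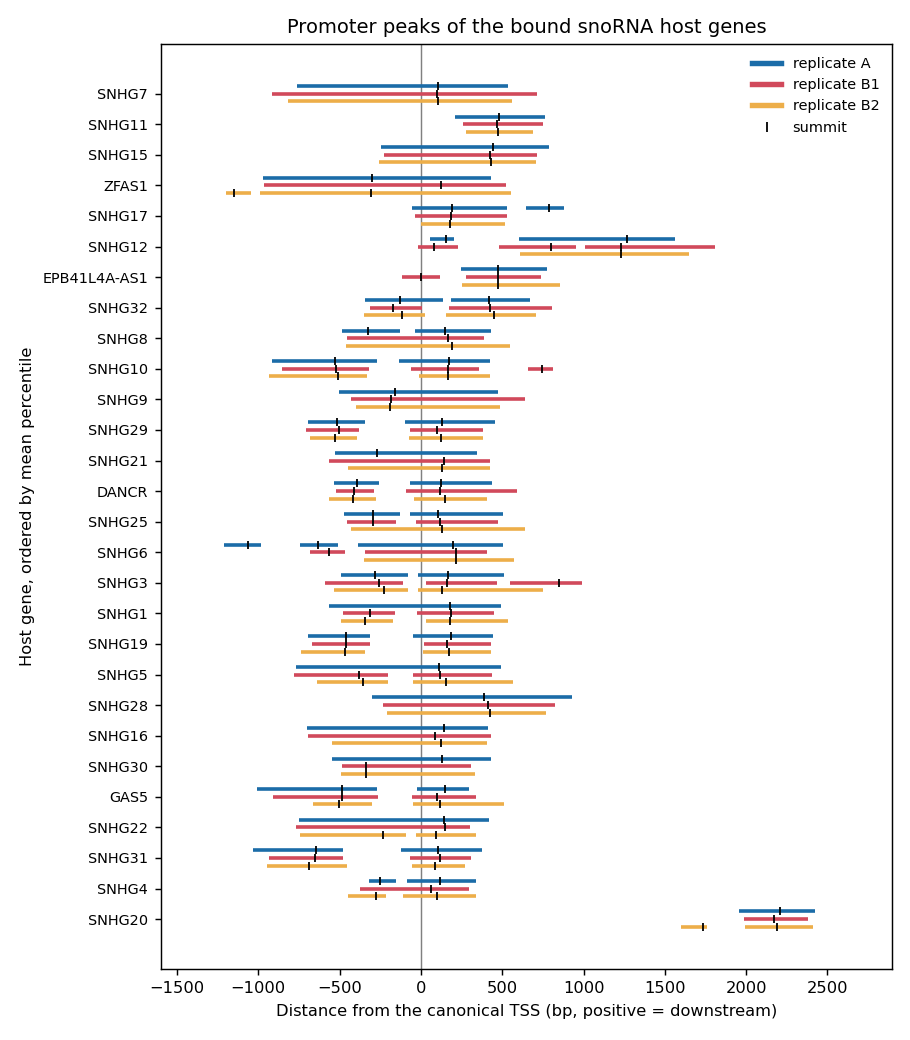
Extent of every promoter peak of the 28 bound host genes (coloured bars, 1 line per replicate) and its summit (black tick) against distance from the canonical TSS in bp (horizontal axis, positive values downstream), with genes ordered by mean percentile. Most genes have a summit just downstream of 0, the upstream partners lie further out, and the strongest summits of SNHG12 and SNHG20 are displaced to 1228 to 1267 bp and 2174 to 2208 bp.

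A peak near 2 promoters cannot be assigned to either gene. The strongest peak of 21 of the 28 bound hosts also overlapped the 1 kb window of another annotated gene, and that of 13 overlapped a protein-coding one. At SNHG17, SNHG25, SNHG32 and EPB41L4A-AS1 the only other gene was a snoRNA gene inside the host itself. The same shares are not given for all bound genes, so these counts do not set the hosts apart. In 8 of the 13 hosts with a protein-coding neighbour, that neighbour is read from the opposite strand. These were GAS5 with ZBTB37, SNHG1 with SLC3A2, SNHG9 with the ribosomal protein gene RPS2, ZFAS1 with ZNFX1, SNHG10 with GLRX5, SNHG19 with TRAF7, SNHG22 with ACAA2 and SNHG31 with BARD1. In 5 it is read from the same strand, namely RCC1 at SNHG3, MATR3 at SNHG4, SEC14L1 at SNHG20 and unnamed protein-coding genes at SNHG5 and SNHG28. The median of the mean percentiles was 56.6 with an opposite neighbour and 48.3 with a neighbour on the same strand. It was 75.9 for the 15 hosts whose peak overlapped no protein-coding promoter, which range from 41.0 (SNHG30) to 91.5 (SNHG7). SNHG7, SNHG11, SNHG15, SNHG17 and SNHG12, 5 of the 6 highest in rank, are among these 15, and ZFAS1 is not.

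No unbound host had a peak close to a TSS. SNHG14 is a very long imprinted transcript of chromosome 15 that carries the SNORD115 and SNORD116 clusters and is known to be read through from the SNRPN promoter. Its annotated span of 441.754 kb held 0 peaks in each replicate. The peak nearest to any of its TSSs was 20.3, 20.3 and 20.2 kb away, at the promoter of UBE3A, with a fold enrichment of 56.1, 24.9 and 28.3. The promoter of SNRPN and SNURF, where the locus is known to start, was bound but low in rank, with a fold enrichment of 7.40, 5.35 and 3.82 from 18, 18 and 13 fragments and percentiles of 2.09, 2.45 and 0.371. The strongest peak there was not the same region throughout, since that of A did not overlap those of B1 and B2.

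SNHG26, host of SNORD93, had its nearest peak 30.9 kb from a TSS, at TOMM7, with a fold enrichment of 9.51, 6.19 and 8.41. SNHG18, host of SNORD123, was 703, 399 and 703 kb from the nearest peak, and SNHG27 was 1375, 1164 and 1164 kb from it. These 3 promoters are not poor in CpG, with a GC share of 78.4% at SNHG18, 70.5% at SNHG26 and 69.1% at SNHG27. The promoter of SNHG27 is printed as the counterpart of that of SNHG7, over the same window and with each CG in capitals.

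SNHG27, chr4:132648592-132648771 (+): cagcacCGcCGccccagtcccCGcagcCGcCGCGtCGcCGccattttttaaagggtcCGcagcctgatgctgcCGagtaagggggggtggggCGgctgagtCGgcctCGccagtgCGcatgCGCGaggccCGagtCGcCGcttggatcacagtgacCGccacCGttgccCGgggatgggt

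It holds 22 CG dinucleotides against 27 in SNHG7, and no peak was listed within 1 Mb. Whether any unbound host is transcribed in these cells was not measured. A peak list holds only regions past the authors' threshold, so weaker occupancy at these promoters was not detectable here.

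The other genes of the pathway were also mostly bound. On a chosen list of 20 autosomal genes for snoRNA-protein particles all 20 were bound, against 61% of protein-coding genes, with a median percentile of 57.6 ± 3.62. The count was 18 with 1 TSS per gene, where 54.8% of protein-coding genes were bound, and 19 at a fold enrichment above 10. They comprised the box C/D core (FBL, NOP56, NOP58, SNU13), autosomal genes of the box H/ACA core (NHP2, NOP10, GAR1), assembly factors and maturation factors. DKC1, also of the box H/ACA core, is X-linked and was left out. The 3 highest mean percentiles were those of RUVBL1 (95.7 ± 1.91), an ATPase of the assembly complex, its partner RPAP3 (94.3 ± 3.64) and SNU13 (92.6 ± 1.16), which binds the box C/D motif directly. Fibrillarin (FBL), the methyltransferase of the box C/D particle, had a fold enrichment of 42.5, 27.3 and 25.7. All 11 genes on a chosen autosomal list for nonsense-mediated decay, which leaves out the X-linked UPF3B, were bound too. Their median percentile was 58.6 ± 1.00. Their 3 highest were the helicase UPF1 (99.6 ± 0.590; fold enrichment 65.8, 58.0 and 49.3), SMG5 (98.1 ± 2.72) and DHX34 (92.8 ± 6.88).

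Protein-coding genes can host snoRNAs too, and 328 of 398 such genes (82.4%) were bound, with a median percentile of 57.2 ± 1.85. The share over all protein-coding genes was 61%. With 1 TSS per gene 286 of the 398 were bound, where 54.8% of all protein-coding genes were. At a fold enrichment above 10 it was 295, and the share of all protein-coding genes is not given there. The 398 had a median of 9 TSSs, against 5 at all protein-coding genes. GENCODE includes predicted snoRNAs. Of the 239 protein-coding genes whose span holds a snoRNA named by RefSeq, 213 (89.1%) were bound, with a median percentile of 61.8 ± 0.0767. The 239 were taken by position on either strand, unlike the 398, so some may not be hosts. The noncoding hosts, at 87.5%, thus lay within 2 percentage points of these protein-coding genes in the share bound. Their median percentile of 62.0 ± 0.781 was close to the 61.8 of these protein-coding genes. The groups are not fully separate. MATR3, RPS2 and RCC1, counted among the protein-coding genes, share the strongest peak of SNHG4, SNHG9 and SNHG3.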

How the data were processed

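The 3 PHF8 ChIP-seq peak lists were used. Reads were aligned by the authors to hg19 with Bowtie2 at default settings, and MACS in its narrow mode called peaks in every replicate separately, against input; bcl2fastq and Picard are named in the submitters' processing notes. The study's supplement names MACS2, and its release and the treatment of duplicates are not given in the sources used here. The deposited fold enrichment is a ratio on a linear scale, ChIP fragments plus 1 over local background plus 1. The deposited p-value and q-value are −log10 values, and the deposited score restates the q-value and was not used. The authors' cutoffs are fold enrichment above 1.5 and a q of 0.05, which their methods print as above 0.05 and which was read here as below; all listed peaks passed on this reading. Depth is known only at summits: fragments were recovered as the whole number that gives both the deposited fold enrichment and p-value under a Poisson law (100% of peaks, tolerance 0.001).

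Peaks were joined to all transcript TSSs of GENCODE 44 on GRCh37, the same build, with windows of 1 kb. Percentiles count ties by their middle rank. SnoRNA names came from the RefSeq table of GRCh38.p14, used for names only. In that table a snoRNA was assigned to a gene by position, without a match of strand. Sequences were read from the GRCh37 reference. The members and lists were chosen with earlier results of these data known, so values are described as mean ± SD over 3 replicates and no test was run. Values per replicate were given for the hosts with the 8 highest and 5 lowest mean percentiles, GAS5, DANCR, ZFAS1, EPB41L4A-AS1, all unbound hosts and the 3 highest members of other lists; further values and FBL were chosen after they were seen. Alternatives covered peak cutoffs, windows, TSS choice, ranking and leaving out each replicate. Scripts were tested on simulated data (python 3.11.15, numpy 2.4.6, scipy 1.17.1).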

Additional observations from a re-analysis of the deposited data

How the results depend on the processing

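Of 80 recomputed values 68 moved by less than the spread between replicates, or by less than 1.5 times for a count, and 12 moved by more. The share of hosts bound was 84.4% with 1 TSS per gene and with the canonical transcript only, and the share of summits at or downstream of the TSS was 84.0% with 1 TSS per gene. The median percentile of the hosts was 53.0 when only peaks with a fold enrichment above 10 were ranked, 59.8 when recovered fragments were ranked in place of fold enrichment and 67.6 when ranked among lncRNA genes alone. With a fold enrichment above 20, chosen after the data were seen, 14 hosts were bound, the mean share with a peak over replicates was 63.5% and the median percentile was 43.99. A cutoff on fold enrichment also removes weaker genes from the ranked set, and medians of other groups are not given there. The percentiles at these cutoffs therefore do not place the hosts against other genes. The number of hosts with a pyrimidine start was 4 at the canonical TSS, 7 within 3 bases of it and 19 at any TSS, and 13 in place of 21 hosts shared their peak when protein-coding neighbours alone were counted. Leaving out each replicate left 28 hosts bound, the same as in the full data, with a median percentile of 61.8 to 62.8, a downstream share of 73.2% to 80.4% and 328 to 330 bound protein-coding hosts. No paired analysis was possible because all values come from 1 group of ChIP replicates and no result comes from a test. The peak lists limit what can be said of promoters without a peak, and the 3 replicates limit the SD.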

Other observations

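Some host genes carried PHF8 peaks inside their annotated span, outside every promoter window of the host. The counts do not record whether another gene starts at these peaks, so they cannot be assigned to the host. DANCR had 2 such peaks in each replicate, the stronger with fold enrichments of 35.8, 21.8 and 16.8 (A, B1, B2), close to its promoter peak (38.2, 24.2 and 18.1). SNHG16 had 1 in each replicate, at 23.3, 13.3 and 13.1. SNHG5 had weaker ones, at 7.58, 8.09 and 6.16 for the strongest, and SNHG22 had 1 in B1 alone, at 3.18 from 13 fragments.

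Short motifs were counted on both strands in the 300 bases from 250 before to 50 after the canonical TSS, with a list of motifs chosen after the data were seen. The E-box CACGTG, the site that MYC and related factors are known to bind, was present at 6 of the 28 bound hosts (21.4%), namely GAS5, SNHG4, SNHG7, SNHG9, SNHG25 and SNHG30. It was present at 5.46% of all lncRNA genes, 8.38% of bound lncRNA genes and 8.65% of protein-coding genes. The NRF1 core GCGCATGC was present at 4 bound hosts (14.3%), against 4.64% of bound lncRNA genes, and at 2 of the 4 unbound hosts, SNHG14 and SNHG27. The ETS core CCGGAAG was present at 2 bound hosts (7.14%), against 14.8% of bound lncRNA genes and 34.6% of ribosomal protein genes. CCAAT was present at 11 bound hosts (39.3%), against 32.1% of bound lncRNA genes, TATAAA at 4 (14.3%), against 5.61% of bound lncRNA genes but 15.9% of all lncRNA genes, and the cyclic AMP response element TGACGTCA at 2 (7.14%), against 2.63%. A match describes letters in this window and says nothing of the factor.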
